A study of Danio rerio with 4 samples.

Results

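A set of 10 genes of glycolysis was followed in whole zebrafish larvae (*Danio rerio*) with a mutation in *uhrf1*, which encodes a chromatin protein needed to maintain DNA methylation. They are the aldolase genes *aldoaa* and *aldocb*, the triosephosphate isomerase gene *tpi1b*, the glyceraldehyde-3-phosphate dehydrogenase genes *gapdh* and *gapdhs*, the phosphoglycerate kinase gene *pgk1*, the enolase genes *eno1a* and *eno3*, and the lactate dehydrogenase genes *ldha* and *ldhba*. They were chosen by symbol, and all act from the aldolase step of the pathway onwards. All 10 were found, each with 1 row, among the 15171 rows of the gene table, and all 10 passed the filter on low counts.

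The mutant group (genotype uhrf1-hi272-/-, homozygous for an insertional allele of *uhrf1*) and the sibling group (phenotypically normal larvae, a mix of +/+ and +/-) had 2 libraries each. Every library was made from total RNA of 10 pooled whole larvae at 5 days post fertilization (dpf), with ribosomal RNA removed. Larvae were sorted into the groups by their appearance, so the mutant pools hold larvae with the mutant phenotype, and the sibling pools include carriers of the allele.

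Glycolysis splits glucose into pyruvate in the cytosol and yields ATP and NADH. Vertebrates carry several gene copies for most of its steps, and these isozymes differ in the tissues that use them: the beta form of enolase serves muscle in mammals, and lactate dehydrogenase A and B subunits combine into tetramers that turn pyruvate into lactate or back. In a larva of this age skeletal muscle, brain and retina are large users of glucose, and the yolk is nearly spent. Because the RNA comes from whole animals, fewer cells of a type and less RNA per cell cannot be told apart here.

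Counts assigned to genes came to 9100665 in mutant 1, 3299449 in mutant 2, 4981004 in sibling 1 and 2996676 in sibling 2. *uhrf1* itself stood at 33.3 and 24.2 CPM in mutants 1 and 2, against 21.4 and 46.8 CPM in siblings 1 and 2, so its count does not check the labels. CPM is the count relative to the total of its library after TMM scaling, which assumes that most genes do not differ between libraries. Markers of skeletal muscle, neurons, lens, retina, liver, pancreas, skin, heart and red cells were present, as whole larvae require, apart from the adult globin gene *hbba1* and the cone gene *gngt2a*, which had no counts in any library. The globin gene *hbaa1* and the photoreceptor gene *pde6ha* were nearly absent, with at most 1 count in a library. None of 20 muscle, 14 neuron and 8 heart markers tested passed the threshold used below in edgeR, DESeq2 or limma-voom. An unadjusted edgeR p under 0.05 was found for 1, 2 and 1 of them, and for 23.3% of all genes tested. Their median log2 fold changes, mutant over sibling, were 0.05 for muscle, -0.37 for neurons and -0.003 for heart. Both mutants lay below both siblings for 1, 7 and 1 of them, and above for 4, 1 and 2. Over all genes tested these patterns held for 26.9% and 28.0%. All 14 lens and all 13 exocrine pancreas markers fell, as did 7 of 17 photoreceptor and 2 of 9 red cell markers. In DESeq2 11 of the 13 exocrine pancreas markers passed. Of 15 liver markers 4 rose and 4 fell, and of 12 skin markers 1 rose and 1 fell. The number of all genes called also changed when 1 library was left out. It fell without mutant 2, rose without either sibling and barely changed without mutant 1. Without mutant 1 the numbers past the threshold were 3 for photoreceptors, 1 for red cells and 1 for skin. Without mutant 2 they were 2 for photoreceptors, 5 for liver, 1 for red cells and 0 for skin. Without sibling 1, or in DESeq2, there were 11 for photoreceptors. Without sibling 2 there were 4 for red cells, 5 for skin and 1 for muscle.

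None of the 10 glycolytic genes passed an adjusted p of 0.05 between mutants and siblings in edgeR's quasi-likelihood test, DESeq2 or limma-voom, and none had an unadjusted edgeR p under 0.05. Over all 12786 genes tested 8.37% passed, 4.58% as higher and 3.79% as lower in mutants. An unadjusted edgeR p under 0.05 was found for 23.3% of them. Adjusted p-values of the 10 genes ran from 0.321 to 0.979. Their log2 fold changes, mutant over sibling, ran from -0.85 to 0.37, with 5 above 0 and 5 below, and their median was -0.10, beside 0.00 over all genes tested. Both mutants lay above both siblings for *aldoaa* and *gapdhs*, and below both siblings for *gapdh*, *tpi1b* and *aldocb*; over all genes tested these 2 patterns held for 28.0% and 26.9%. The groups overlapped for the other 5 genes.

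**Figure D1:**
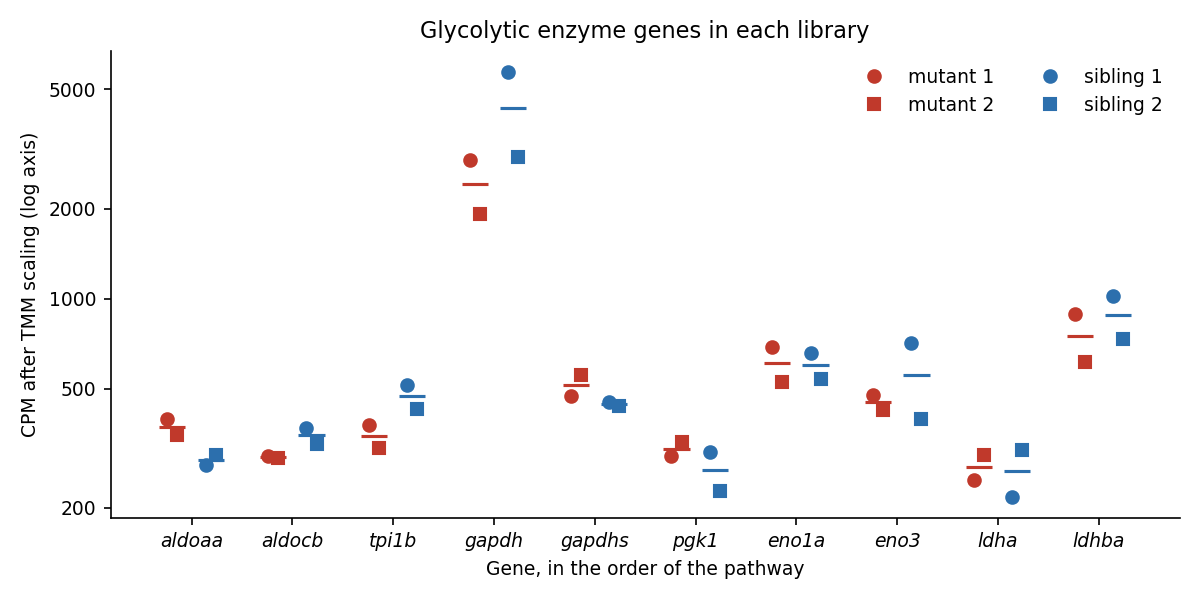
CPM of the 10 glycolytic genes (log axis) in mutant 1 and 2 (red) and sibling 1 and 2 (blue), with a line at each group's mean. *gapdh* has the largest difference between group means, with 2902 and 1914 CPM in mutants against 5717 and 2965 CPM in siblings. Its values in mutant 1 and sibling 2 nearly meet. Heights of different genes are not comparable because CPM does not correct for transcript length.

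The aldolases cleave fructose-1,6-bisphosphate into 2 triose phosphates. *aldoaa* (NM_194377), an aldolase A gene, stood at 397 and 350.3 CPM in mutants 1 and 2, against 278 and 301 CPM in siblings 1 and 2. Both mutants were above both siblings, yet the log2 fold change of 0.37 (SE 0.25) did not pass (edgeR adjusted p = 0.420), and its 95% interval ran from -0.19 to 0.93. It is the highest fold change among the 10 genes. The aldolase C gene *aldocb* (NM_194384), whose counterpart in mammals is the brain form, had 299 and 294 CPM in mutants and 370.5 and 328 CPM in siblings. Both mutants were a little below both siblings, with a log2 fold change of -0.24 (SE 0.25) and an edgeR adjusted p of 0.618. Beside it, the 14 neuron markers tested had a median log2 fold change of -0.37. The part of neurons in the *aldocb* value was not tested.

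Triosephosphate isomerase interconverts the pair of triose phosphates, so that both can enter the later steps. *tpi1b* (NM_153668) stood at 379.5 and 318 CPM in mutants, against 514 and 429 CPM in siblings. Both mutants were below both siblings, but the log2 fold change of -0.43 (SE 0.27) did not pass (edgeR adjusted p = 0.378). Its paralog *tpi1a* was counted far less often: *tpi1b* held 94.3% (95% Wilson interval 93.5 to 94.97) and 95.3% (94.0 to 96.4) of the counts of the pair in mutants, against 96.1% (95.3 to 96.8) and 93.7% (92.4 to 94.9) in siblings. That share overlapped between the groups.

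Glyceraldehyde-3-phosphate dehydrogenase makes the NADH of glycolysis, and its main gene is a common loading control. *gapdh* (NM_001115114) stood at 2902 and 1914 CPM in mutants 1 and 2, against 5717 and 2965 CPM in siblings 1 and 2. Mutant 1 and sibling 2 nearly met, while sibling 1 stood well apart from the other 3 libraries. DESeq2 gave a log2 fold change of -0.86 (SE 0.34), which did not pass (DESeq2 adjusted p = 0.101). In edgeR the log2 fold change was -0.85 (SE 0.48), the largest in size of the 10, and did not pass (edgeR adjusted p = 0.321). Its 95% interval ran from -1.91 to 0.21. It was -0.31 without sibling 1, -1.25 without sibling 2 (edgeR adjusted p = 0.0627), -1.20 without mutant 1 and -0.58 without mutant 2. The second gene, *gapdhs* (NM_213094), is named after the sperm form of mammals. It had 473 and 556 CPM in mutants, against 450.3 and 437 CPM in siblings. Both mutants were above both siblings, with a log2 fold change of 0.21 (SE 0.28) and an edgeR adjusted p of 0.694.

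Phosphoglycerate kinase carries out the first step of the pathway that makes ATP. *pgk1* (NM_213387) had 298 and 331 CPM in mutants and 307 and 228 CPM in siblings. Mutant 1 lay between the siblings, and edgeR gave a log2 fold change of 0.23 (SE 0.26, adjusted p = 0.646). Without sibling 2 it was 0.03, and without sibling 1 it was 0.46.

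Enolase forms phosphoenolpyruvate. The alpha-enolase gene *eno1a* (NM_212722) stood at 691 and 526 CPM in mutants, against 659.5 and 539.9 CPM in siblings. The siblings lay between the mutants, and edgeR gave a log2 fold change of 0.02 (SE 0.31, adjusted p = 0.979). The beta-enolase gene *eno3* (NM_214723), the muscle form in mammals, had 477 and 426 CPM in mutants and 714 and 396 CPM in siblings. Sibling 1 was high and sibling 2 was the lowest of the 4 libraries, so the groups overlapped, with a log2 fold change of -0.30 (SE 0.33) and an edgeR adjusted p of 0.646. Beside it, the summed level of the 20 skeletal muscle markers was 101019 and 80087 CPM in mutants and 100382 and 68207 CPM in siblings, and the median log2 fold change of those markers was 0.05.

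Lactate dehydrogenase regenerates NAD by turning pyruvate into lactate when glycolysis outruns respiration. *ldha* (NM_131246), the A subunit, stood at 248 and 302 CPM in mutants, against 218 and 313 CPM in siblings. The siblings enclosed the mutants, and edgeR gave a log2 fold change of 0.05 (SE 0.27, adjusted p = 0.938). *ldhba* (NM_131247), a B subunit gene, had 887 and 616 CPM in mutants and 1024 and 734 CPM in siblings. These values overlapped too, with a log2 fold change of -0.23 (SE 0.34) and an edgeR adjusted p of 0.745.

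How wide the intervals are limits what these values can show. The upper 95% bound stayed under 1, a doubling, for all 10 genes, and the highest was 0.93 for *aldoaa*. The lower bound reached below -1 for *gapdh*, *tpi1b* and *eno3*, so a fall to 0.5 times the sibling level lies within their intervals. These bounds rest on 2 pools a group, and on a spread that edgeR draws partly from all genes tested. The members' counts ran from 725 to 26364 in a library, and the counting error at the lowest of them was 3.71%. Pools of 1 group mostly differed by more than that, though the ratio of pool 1 to pool 2 was only 1.02 for *aldocb* in mutants and 1.03 for *gapdhs* in siblings. For *gapdh* the ratio of pool 1 to pool 2 was 1.52 in mutants and 1.93 in siblings, and for *eno3* it was 1.12 and 1.80. Pool 1 was above pool 2 in both groups for 6 of the 10 genes, while *ldha* went the other way in both groups, at 0.823 in mutants and 0.698 in siblings. In each group pool 1 was also the more deeply counted library, and the part of depth in these ratios was not tested.

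**Figure D2:**
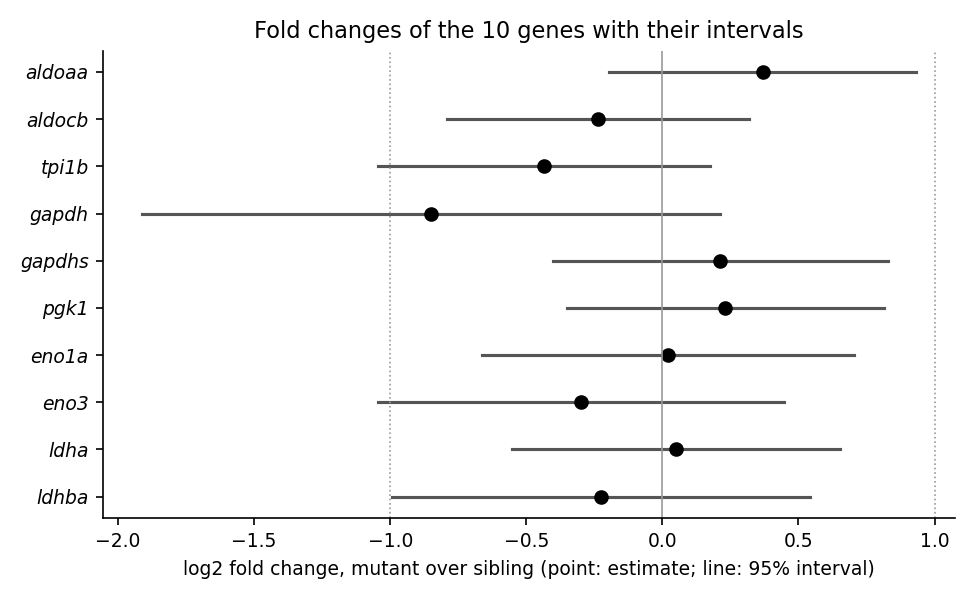
log2 fold change, mutant over sibling, of the 10 genes (points) with 95% intervals (lines); dotted lines mark a 2-fold change in each direction. Every interval includes 0, none reaches 1, and those of *gapdh*, *tpi1b* and *eno3* reach below -1.

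The 10 genes together took 0.704% (95% Wilson interval 0.699 to 0.709) of all gene counts in mutant 1 and 0.593% (0.585 to 0.602) in mutant 2, against 0.913% (0.905 to 0.921) in sibling 1 and 0.708% (0.699 to 0.718) in sibling 2. Much of that sum was *gapdh*, which held 41.2% (40.8 to 41.5) and 34.0% (33.3 to 34.7) of the members' counts in mutants and 55.8% (55.3 to 56.2) and 44.4% (43.8 to 45.1) in siblings. Without *gapdh*, the other 9 genes summed to 4150 and 3717 CPM in mutants and 4535 and 3705 CPM in siblings. The groups overlapped in that sum and did not in the share of *gapdh*. Intervals of shares cover counting error only.

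Ratios between isozymes do not depend on how libraries are scaled. A set of 4 pairs was compared by the log2 ratio of their counts in each library. An exact two-sided permutation test of 2 libraries against 2 cannot go below p = 0.33, so none of them can pass. The ratio of *gapdhs* to *gapdh* was -2.62 and -1.78 in mutants, against -3.67 and -2.76 in siblings, a difference of 1.01 on the log2 scale (exact permutation p = 0.33). Both mutants were above both siblings, though mutant 1 and sibling 2 lay close together. The difference ranged from 0.56 without sibling 1 to 1.47 without sibling 2, and was 0.60 without mutant 2. The ratio of *aldocb* to *aldoaa* was -0.41 and -0.25 in mutants, against 0.42 and 0.12 in siblings, a difference of -0.60 (exact permutation p = 0.33). *aldoaa* had more counts than *aldocb* in both mutants and fewer in both siblings. Where that sign changes depends on transcript length, which was not corrected for. Another aldolase A gene, *aldoab*, was left out of this ratio. It stood above *aldoaa* in every library, at 802 and 631 CPM in mutants and 843 and 678 CPM in siblings (log2 fold change -0.09). That *gapdhs* over *gapdh* and *aldocb* over *aldoaa* separate the groups follows from the opposite orders of their single genes, given above. It is not a further result. The groups overlapped for *ldha* over *ldhba*, at -1.84 and -1.03 in mutants and -2.23 and -1.23 in siblings (difference 0.30, exact permutation p = 0.667). They overlapped likewise for *eno1a* over *eno3*, at 0.53 and 0.30 in mutants and -0.11 and 0.45 in siblings (difference 0.25, exact permutation p = 0.667). Adjusted over the 4 pairs by Benjamini-Hochberg, each exact permutation p was 0.667. Aldolase and enolase paralogs are related copies, and reads that match more than 1 of them may have been split or dropped in the counting, which leaves their single values uncertain.

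**Figure D3:**
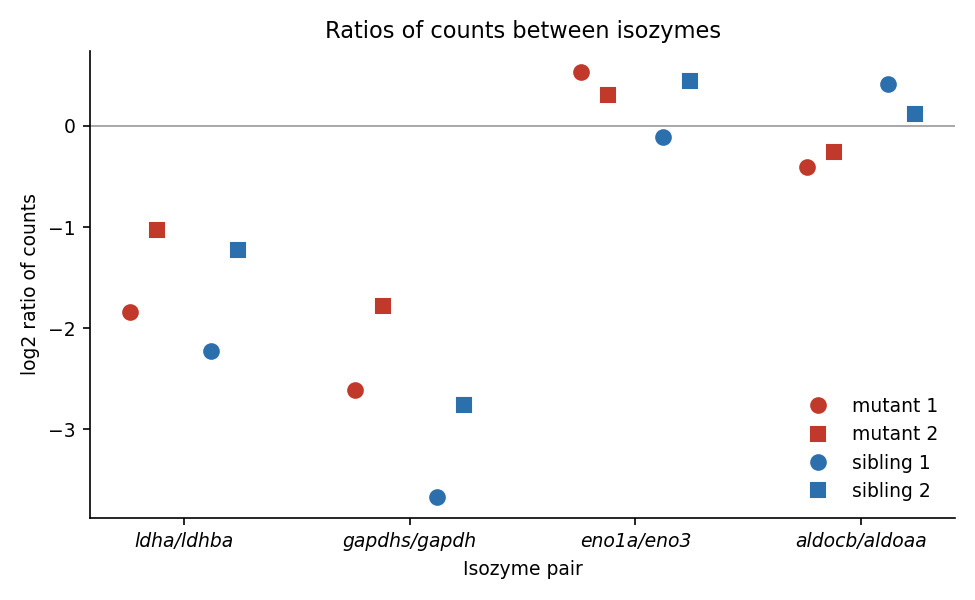
log2 ratio of the counts of 2 isozyme genes in each library, mutants (red) left of siblings (blue). The groups do not overlap for *gapdhs*/*gapdh* and *aldocb*/*aldoaa*, and do for the other 2 pairs. Where they do not overlap, this follows from the opposite orders of the single genes.

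Of 26 further symbols of the pathway 22 were matched and 21 could be tested: 1 rose, 1 fell and 19 did not pass, with a median log2 fold change of -0.16. These 2 calls in 21 genes are a share near the 8.37% of all genes tested. *hk2*, a hexokinase gene that commits glucose to the cell by phosphorylating it, rose to 20.6 and 30.2 CPM in mutants, against 3.38 and 7.86 CPM in siblings (2.20 on the log2 scale with SE 0.41, edgeR adjusted p = 0.00898). Its log2 fold change was 2.87 without sibling 2 and 1.66 without sibling 1. The other hexokinase genes tested, *hk1* (0.56, edgeR adjusted p = 0.242) and *hkdc1* (-0.23, edgeR adjusted p = 0.698), did not pass. *pklr*, the pyruvate kinase gene of liver and red cells, fell to 23.0 and 23.3 CPM in mutants, against 125 and 68.2 CPM in siblings (-2.07 on the log2 scale with SE 0.29, edgeR adjusted p = 0.00191). The other pyruvate kinase genes, *pkma* (0.27, edgeR adjusted p = 0.551) and *pkmb* (0.40, edgeR adjusted p = 0.452), did not pass. Liver markers did not all move one way beside *pklr*. Of the 15, 10 had a log2 fold change below 0 and 5 above, with a median of -0.42. The fibrinogen chain genes *fga* and *fgb*, the complement gene *c3a.1* and the ceruloplasmin gene *cp* rose, and *uox*, *ahsg2*, *ttr* and *serpina1* fell. The 15 liver markers summed to 5740 and 7660 CPM in mutants and 8856 and 7399 CPM in siblings, the 9 red cell markers tested had a median log2 fold change of -0.57, and the part of either cell type in this fall was not tested.

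**Figure D4:**
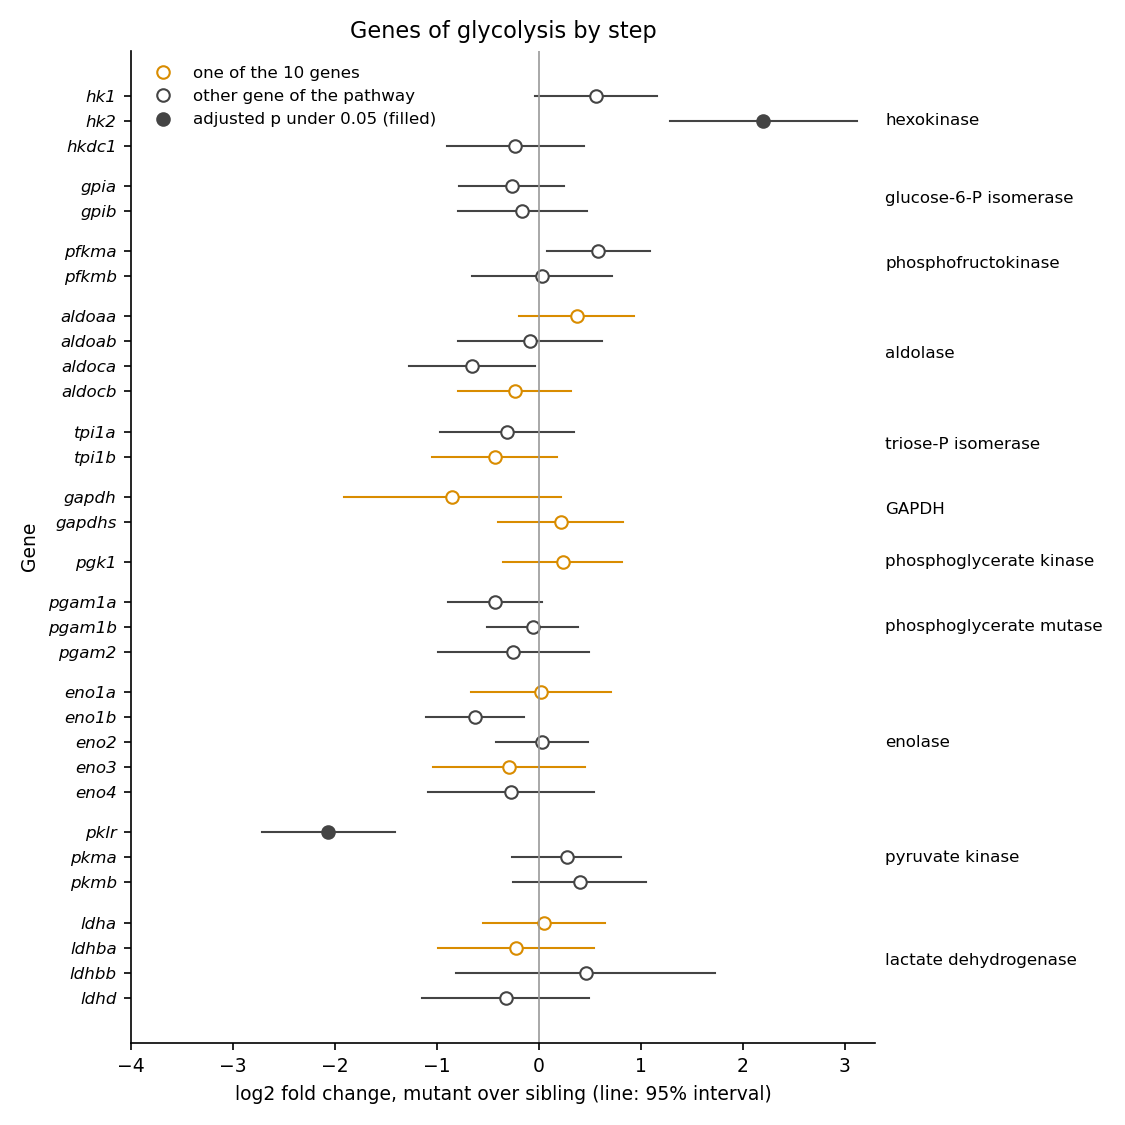
log2 fold change, mutant over sibling, with 95% interval, for 31 genes of glycolysis and lactate metabolism in the order of the steps; filled points passed an adjusted p of 0.05. *hk2* rose, *pklr* fell, and the points of the 10 genes followed here (orange) are all open.

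Genes that steer flux into and out of the pathway were counted in lists. Over all genes tested 4.58% were called higher and 3.79% lower in mutants. Each list holds few genes, so its share of calls rests on few genes. Of 7 tested genes that set the level of fructose-2,6-bisphosphate, a strong activator of phosphofructokinase, 1 rose and 6 did not pass; without sibling 2 there were 2 calls. The riser was *pfkfb3*, which makes that activator, at 132 and 100.1 CPM in mutants against 57.3 and 43.7 CPM in siblings (1.20 on the log2 scale with SE 0.24, edgeR adjusted p = 0.0119); its call was lost without mutant 1 (edgeR adjusted p = 0.0631). Of 16 glucose and lactate transporter genes tested, 4 fell and 12 did not pass, with a median of -0.17. The fall was found for *slc2a2* (Glut2), at 22.0 and 22.7 CPM in mutants against 70.3 and 71.1 CPM in siblings (log2 fold change -1.66, SE 0.21), for *slc2a1a* (Glut1), at 24.3 and 22.1 CPM against 46.9 and 53.8 CPM (-1.11, SE 0.22), for the monocarboxylate transporter gene *slc16a7* (-1.72, SE 0.41; -2.47 without mutant 1) and for the sodium-glucose transporter gene *slc5a1* (-0.85, SE 0.22). Of these *slc2a1a* and *slc16a7* lost the call without mutant 2 (edgeR adjusted p = 0.0793 and 0.135), and *slc5a1* without mutant 1, mutant 2 or sibling 1 (edgeR adjusted p = 0.186, 0.113 and 0.108) and with library totals alone (edgeR adjusted p = 0.0916). Without mutant 2 the list held 1 call.

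Of 20 genes of gluconeogenesis and glycogen metabolism tested, 3 fell and 17 did not pass, with a median log2 fold change of -0.45. An unadjusted edgeR p under 0.05 was found for 10 of the 20, and for 23.3% of all genes tested. Both mutants lay below both siblings for 12 and above for 3, patterns that 26.9% and 28.0% of all genes tested had. Over all genes tested 3.79% were called lower. *fbp1b*, a fructose-1,6-bisphosphatase gene that runs the opposite way to phosphofructokinase, stood at 134 and 87.1 CPM in mutants against 751 and 357.5 CPM in siblings (-2.32 on the log2 scale with SE 0.39, edgeR adjusted p = 0.00478; -1.69 without sibling 1). The phosphoenolpyruvate carboxykinase gene *pck2* (-0.94, SE 0.21) and the liver glycogen synthase gene *gys2* (-1.04, SE 0.27) fell as well. The other phosphoenolpyruvate carboxykinase gene, *pck1*, went the opposite way, at 167 and 195 CPM in mutants against 118 and 90.6 CPM in siblings. Its log2 fold change of 0.79 (SE 0.23) did not pass (edgeR adjusted p = 0.0648). *pck2* lost its call without mutant 1 (edgeR adjusted p = 0.0878), without mutant 2 (edgeR adjusted p = 0.185) and with library totals alone (edgeR adjusted p = 0.0556). *gys2* lost it with DESeq2 (adjusted p = 0.0571), with library totals alone (edgeR adjusted p = 0.0647) and without mutant 1, mutant 2 or sibling 1 (edgeR adjusted p = 0.134, 0.120 and 0.147). The list's count fell without either mutant and rose without sibling 2. The number of all genes called also fell without mutant 2 and rose without sibling 2, but barely changed without mutant 1.

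None of 13 genes for the entry of pyruvate into mitochondria passed in edgeR with TMM scaling and the count filter, or in limma-voom, and 4 had an unadjusted edgeR p under 0.05. In DESeq2 2 passed, in edgeR with median-ratio scaling 1, and in edgeR with no count filter 3. The lowest p belonged to *dldh*, a subunit gene of the pyruvate dehydrogenase complex, at 15.7 and 13.5 CPM in mutants and 26.2 and 31.4 CPM in siblings (-0.96 on the log2 scale with SE 0.26, edgeR adjusted p = 0.0512). Without sibling 1, 3 of these genes passed, and without mutant 1 or sibling 2, 1 did. None of 7 pentose phosphate genes passed in edgeR, DESeq2 or limma-voom, and 1 had an unadjusted p under 0.05 (1 call without sibling 2); this was *prps1a*, at 68.1 and 73.0 CPM in mutants and 40.6 and 47.5 CPM in siblings (0.68 on the log2 scale with SE 0.21, edgeR adjusted p = 0.0778). Several genes of the hypoxia list have mammalian counterparts that HIF induces along with glycolytic enzymes. Over all genes tested 4.58% were called higher. The share was near that in this list, where 1 of 22 tested rose, none fell, and the median was 0.05. That gene was *higd1a*, at 74.7 and 56.4 CPM in mutants against 20.3 and 13.5 CPM in siblings (1.95 on the log2 scale with SE 0.27, edgeR adjusted p = 0.00174). In this list 4 of 22 genes had an unadjusted edgeR p under 0.05, against 23.3% of all genes tested. Apart from *higd1a* these were *cited2* (-0.79), *vhl* (-0.85) and *bnip3* (-0.87), which were lower in mutants and did not pass. Without mutant 1, sibling 1 or sibling 2 the hypoxia list held 2, 3 and 2 calls, and with no count filter 2.

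Among genes outside these lists, *alkbh1*, *tsc1b* and *rasd4* had the pattern closest to the mean of the 10 genes over the 4 libraries. Likeness was the distance between centred log2 CPM profiles, which was 0.030 for *alkbh1*, 0.032 for *tsc1b* and 0.040 for *rasd4*. The mean profile of the 10 genes was nearly flat, at 0.02 and -0.13 in mutants and 0.19 and -0.09 in siblings, and these 3 genes were nearly flat as well. The members themselves stood further from their own mean, from 0.17 for *aldocb* to 0.90 for *gapdh*. The 3 genes were picked as the nearest of all eligible genes, so this contrast was built into the choice.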

How the data were processed

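Ribosome-depleted total RNA of whole larvae was sequenced in 2 mutant and 2 sibling libraries. The authors deposited raw counts per RefSeq accession. The submitters' processing notes name build GRCz10 and the tools DESeq2, HTSeq and Bowtie2 2.1.0 without saying what each did. How reads with several matches were treated, the annotation and the strand setting are not stated there. The deposited repeat counts were not used. Symbols were looked up by accession in RefSeq's GRCz12tu gene table, from which no coordinates are taken: 14472 of 15171 rows matched, and a symbol with several rows was given by the row with the most counts.

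Groups and replicate numbers come from the titles. Counts were fitted over all genes with edgeR 4.0.16 in R 4.3.3 (filterByExpr, TMM, glmQLFit and glmQLFTest, no block) with Benjamini-Hochberg adjustment at 0.05. The SE is the log2 fold change divided by the square root of F, and the 95% interval uses the t quantile of the fit's degrees of freedom. One count was worth 0.110 CPM in mutant 1, 0.303 in mutant 2, 0.201 in sibling 1 and 0.334 in sibling 2 before TMM. The labels name separate clutches but tie none to a library, so a p-value rests on differences between these pools, which may be technical. edgeR draws the spread of a gene partly from all genes tested. Its p, SE and interval therefore do not reflect the pools' values of that gene alone. Replicates were not copies (chi-square per degree of freedom 14.4 in mutants and 16.9 in siblings). Ratios had 0.5 added to each count.

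Named are the 10 members, from each pathway list up to 4 genes past the threshold with the lowest p (else the 1 with the lowest p), and the 3 genes of at least 5 mean CPM nearest to the members; marker lists are given mainly by counts. Shares within gene pairs were added after values were seen. An item of the pathway is not reported here. The members and lists were chosen with earlier results of these data known. Alternatives were DESeq2 1.42.0, limma-voom (limma 3.58.1), other scalings, filters and row choices, a replicate block, and leaving out each library.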

Additional observations from a re-analysis of the deposited data

How the results depend on the processing

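Of 120 values of the 10 genes under 12 alternatives, 111 kept direction and call. The sign turned for *eno1a* with limma-voom (-0.010), and when 1 library was left out for *eno1a* (-0.21 to 0.21), *eno3* (-0.66 to 0.18), *ldha* (-0.20 to 0.33) and *ldhba* (-0.53 to 0.029). No member passed in any alternative but the replicate block, a fit with the replicate number as a term, where 1 passed as lower, *gapdh* (log2 fold change -0.81, edgeR adjusted p = 0.0361). That block gave 2531 genes called in place of 1070 and 5 other glycolytic genes in place of 2. The labels do not say that equal numbers share a clutch, so the numbers are not taken as pairs. The deviations of same-numbered libraries correlated at 0.24 over the 12786 genes tested. With 2 pairs of libraries that value cannot decide whether the numbers pair them. Leaving out 1 library gave 576 to 1559 genes called (576 without mutant 2), 2 other glycolytic genes each time, and a median of the members from -0.24 to 0.10. The isozyme differences then ran from -0.20 to 0.80 for *ldha* over *ldhba*, and from -0.028 to 0.53 for *eno1a* over *eno3*. Of the other named pathway genes *hk2*, *pklr*, *fbp1b*, *slc2a2* and *higd1a* kept their calls in all 12 alternatives. Counts of calls in the other lists moved by over 1.5 times, or to or off 0, in 40 of 180 cases. The cause of these changes was not tested. Depth was not varied, and the number of pools only by leaving out 1 library. Which of them limits what can be seen of the members was not tested.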

Other observations

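*gapdh* is often used to normalise other genes, so 11 genes used as references in quantitative PCR were looked up after the values above were seen, and are given without a test. Their log2 fold changes, mutant over sibling, ran from -0.42 to 0.93, with a median of -0.04, beside -0.85 for *gapdh*. The beta-actin gene *actb1* stood at 5560 and 4882 CPM in mutants, against 2465 and 3020 CPM in siblings, a fold change of the opposite sign to that of *gapdh*. The second beta-actin gene, *actb2*, stood at 3075 and 2368 CPM in mutants and 2991 and 2162 CPM in siblings. The RNA polymerase subunit gene *polr2d* had 16.8 and 15.5 CPM in mutants and 17.8 and 15.4 CPM in siblings. The succinate dehydrogenase gene *sdha* had 255 and 257 CPM in mutants and 299.9 and 246 CPM in siblings. For *actb1*, *ube2a*, *tuba1b* and *tbp*, 4 of the 11, each mutant exceeded each sibling, a pattern that 28.0% of all genes tested had, and for none was each mutant lower than each sibling. The groups overlapped for the other 7, *actb2*, *polr2d* and *sdha* among them.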
